A study of Danio rerio with 6 samples.

Results

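Amino acid transporters of the solute carrier (SLC) superfamily were compared between the enveloping layer (EVL), the surface epithelium that covers the zebrafish blastoderm, and the remaining cells of the embryo. The genes were taken by name, as every gene listed in lower case under SLC1, SLC3, SLC7, SLC36, SLC38 or SLC43, which gave 47 of 31953 genes. This set was chosen with earlier results of these data known. By family these were 11 SLC1, 3 SLC3, 14 SLC7, 2 SLC36, 11 SLC38 and 6 SLC43 genes. A further 10 genes of these families, which the files list in capitals, fell outside that rule and are described separately. All 6 libraries came from Tg(krt18:krt18-GFP) embryos at 6 hpf (hours post fertilisation), the onset of gastrulation. In this line a krt18 transgene carries GFP fused to the EVL keratin Krt18, so the reporter follows krt18 and not any transporter. About 1500 embryos were dissociated for a sort, and 10000 GFP+ cells were collected. GFP-positive cells (labelled EVL) and GFP-negative cells (labelled non-EVL) gave 3 libraries each, by SMARTseq2 amplification and 50-nt single-end sequencing. The labels name no clutch or sorting day for any library. The p-values therefore speak only of the spread among these 6 libraries, and that spread may be technical.

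Amino acids cross membranes only through carriers, and the 6 families divide this work by chemistry and location; the roles given here are known mainly from mammalian proteins. SLC1 carriers take up glutamate and aspartate, or exchange small neutral amino acids such as alanine and serine. SLC7 holds cationic amino acid transporters, which act alone, and light chains of heteromeric exchangers, which reach the plasma membrane only when bound to an SLC3 heavy chain. SLC38 carriers move glutamine and other neutral amino acids together with sodium, and SLC36 includes carriers that move small amino acids with protons. SLC43 carriers pass large neutral amino acids without a heavy chain or an ion gradient. Large neutral amino acids such as leucine also signal nutrient supply to the kinase complex mTORC1, which controls growth.

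Levels are normalised reads, that is, whole reads divided by a size factor for each library. They are not divided by gene length, so levels were compared between libraries and not between genes. The libraries held 32.2M to 46.1M reads assigned to genes, of which the gene listed as AC024175.4 took 30.1% to 42.7%. Levels of 11 EVL marker genes were used to describe the sort, and not as an independent check. This list was chosen with earlier results of these data known. All 11 markers were higher in GFP-positive cells, with a median log2 fold change of 4.81 (limma). Relative to their mean in GFP-positive cells, the median marker stood at 172%, 76.1% and 50.8% in GFP-positive replicates 1, 2 and 3. In GFP-negative replicates it stood at 2.63%, 3.61% and 3.29%. Summed normalised reads of the 11 markers ran from 489148 to 1.63982e+06 in GFP-positive libraries and from 25651 to 34933 in GFP-negative ones. Markers of dorsal forerunner cells, a small superficial group at the dorsal margin, were also higher, with 3 of 4 tested called (sox32, sox17 and foxj1a; limma). Their sum ran from 18002 to 30791 in GFP-positive and from 3418 to 5156 in GFP-negative libraries, and none of the 5 was at 0 in any GFP-positive library. Most of this sum came from sox32 (11659 to 19994.5 against 1684 to 3125) and sox17 (4591 to 6238 against 546 to 1390). Of 7 tested germ cell markers 3 were lower (summed level 1851 to 4197 against 4521 to 7575), and of 7 tested yolk syncytial layer markers 1 was lower (45112 to 59238 against 78058 to 93846). That gene was apoeb, an apolipoprotein gene, which made up nearly all of the yolk syncytial layer sum (44827 to 58757 against 77707 to 93302). The uncalled mxtx1 and hnf4a had log2 fold changes of 1.42 and 0.50. The other uncalled markers hnf1ba, apoa1b, apoba and gata6 had -1.63, -0.72, -0.56 and -0.50. Of 15 tested deep cell markers 2 were higher, the same sox32 and sox17 as on the dorsal forerunner list, and 4 were lower (64345 to 117340 against 74019 to 101921). At an unadjusted p under 0.05 (limma), 4 deep cell markers were higher and 7 lower. Those higher included the uncalled cxcr4a and aplnra, with log2 fold changes of 1.16 and 0.66. For all these marker lists, the background over all genes tested was 8.80% called higher and 0.676% called lower. In such bulk samples, fewer cells of a type and less RNA per cell cannot be told apart.

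Of the 47 genes taken by name, called transporter genes here, 33 passed the filter for testing (10 or more normalised reads in 3 or more libraries) and 14 did not. The 33 include slc7a6os, which is no transporter gene. Among the 33, 4 were higher in GFP-positive cells, namely slc7a5, slc3a2b, slc43a2b and slc3a2a, and 0 were lower (limma on log2(value + 1), Benjamini-Hochberg adjusted p under 0.05 over all 15971 genes tested). Over all genes tested, 8.80% were called higher and 0.676% lower, so the number of transporter genes called was close to the background share. The 29 tested but uncalled genes divided into 17 with log2 fold changes above 0 and 12 below. At an unadjusted p under 0.05 there were 9 genes, 8 of them higher and 1 lower (slc38a4). Over all 15971 genes tested, 2528 were higher and 1150 lower at that threshold. No transporter gene was called lower by edgeR or DESeq2 either, whereas edgeR called 5 and DESeq2 6 higher, against 8.90% and 12.5% of all genes. The median log2 fold change was 0.29 over the 33 genes and -0.06 over all genes tested. Scaling by library size alone moved these medians to -0.01 and -0.36, and changed the split over all genes from 1405 higher and 108 lower to 1317 higher and 1191 lower. It left 4 transporter genes called higher and 0 lower. All 3 GFP-positive libraries lay above all 3 GFP-negative ones for 6 of the 33 genes and below them for 1, slc1a7b. Over all genes tested these shares were 17.4% and 13.5%. slc1a7b reached the filter's 10 normalised reads in the GFP-negative libraries alone, so its separation followed from the filter.

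**Figure D1:**
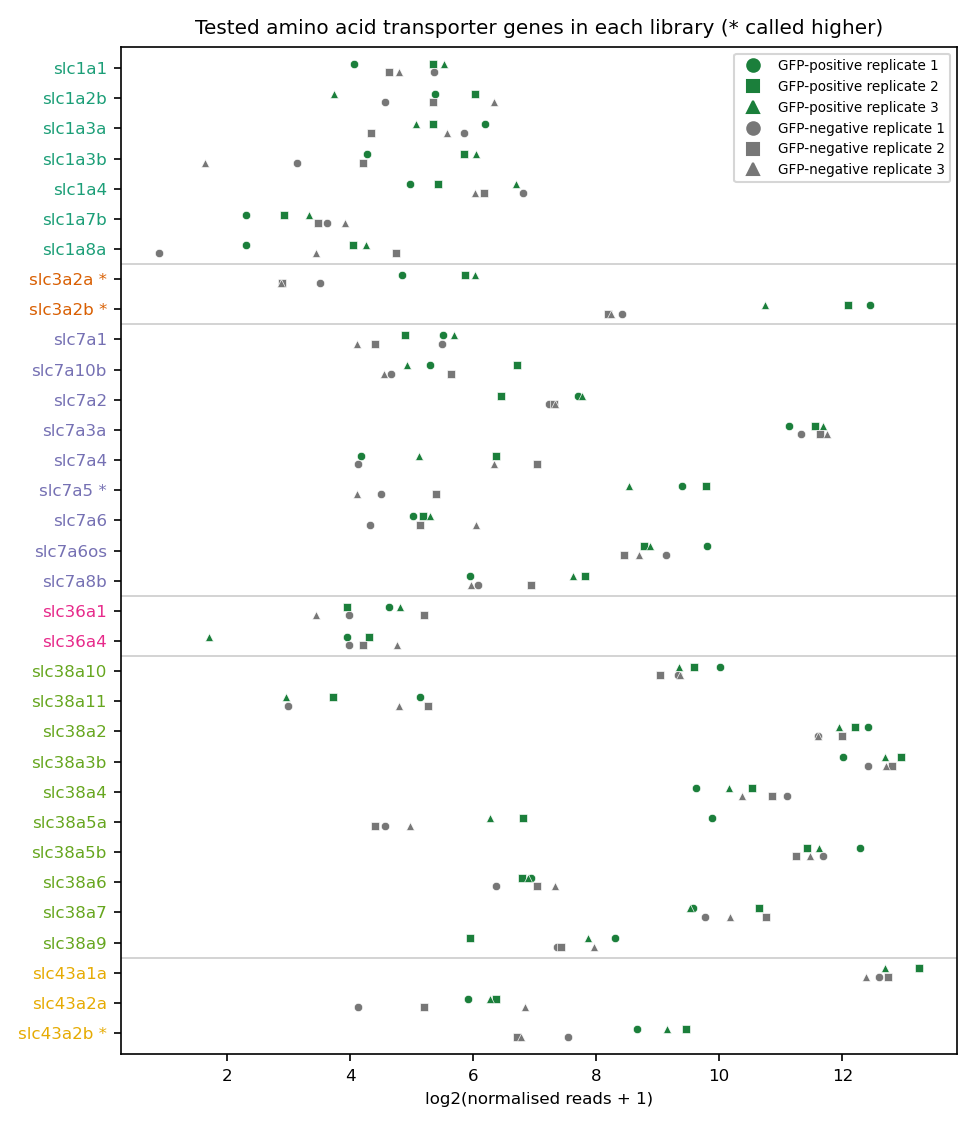
Level of each of the 33 tested genes in each library, as log2(normalised reads + 1), grouped by family; marker shape gives the replicate and an asterisk marks the 4 genes called higher. For slc7a5, slc3a2b, slc3a2a and slc43a2b the 3 green GFP-positive points lie to the right of all 3 grey GFP-negative points, whereas for most other genes the points intermingle.

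The largest change was in the light chain slc7a5 (ENSDARG00000099265), whose mammalian counterpart LAT1 exchanges leucine, phenylalanine and other large neutral amino acids. It had 676, 880.2 and 368 normalised reads in GFP-positive replicates 1, 2 and 3, and 21.7, 41.3 and 16.2 in GFP-negative replicates. The lowest GFP-positive library was well above the highest GFP-negative one, and replicate 3 was the lowest of its group on both sides. Mean levels were 641 ± 258 against 26.4 ± 13.2 (SD, n = 3 each), and the fitted rise was 23.7-fold (4.57 on the log2 scale, with an SE of 0.47 and a 95% interval of 3.49 to 5.64; limma, adjusted p = 0.000796). Only 1.82% of all genes tested had a larger log2 fold change. The GFP-negative values rested on 25, 45 and 23 reads, against 326 to 795 reads in GFP-positive libraries.

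The heavy chain slc3a2b (ENSDARG00000037012), a copy of the gene for CD98 (4F2hc), which carries LAT1-type light chains to the surface, was also higher. Its level was 5586, 4363 and 1709 normalised reads in GFP-positive and 342, 290.3 and 302 in GFP-negative replicates. The GFP-negative libraries were close to each other, while the GFP-positive ones spread more than 3-fold, again with replicate 3 lowest. The means were 3886 ± 1982 and 311 ± 27.3 (SD, n = 3 each), and the fold change fitted to the log2 values was 11.1 (3.48 on the log2 scale, with an SE of 0.40 and a 95% interval of 2.55 to 4.40; limma, adjusted p = 0.00126). Reads of slc3a2b made up 14.3%, 11.0% and 5.54% of all reads of the 47 genes in GFP-positive libraries and 1.30%, 0.972% and 1.13% in GFP-negative ones.

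The second CD98 copy, slc3a2a (ENSDARG00000036427), was higher too but had few reads. It stood at 27.7, 57.6 and 64.3 normalised reads in GFP-positive and at 10.4, 6.43 and 6.34 in GFP-negative replicates, which were 21, 52 and 57 against 12, 7 and 9 reads. The groups did not overlap, and here GFP-positive replicate 1 was the lowest of its group, unlike for slc3a2b. Means were 49.8 ± 19.5 and 7.73 ± 2.33 (SD, n = 3 each), with a fitted fold change of 5.60 (2.49 on the log2 scale, with an SE of 0.55; limma, adjusted p = 0.0260). Leaving out replicate 2 or 3 of either group ended this call, with limma adjusted p-values of 0.0976 and 0.102 for the GFP-positive and 0.0837 and 0.0832 for the GFP-negative replicates. The gene passed the filter largely through the GFP-positive libraries. The a copy gave 0.493%, 1.30% and 3.63% of the reads of the slc3a2 pair in GFP-positive libraries and 2.96%, 2.17% and 2.06% in GFP-negative ones, so nearly all CD98 reads came from slc3a2b in both groups.

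The third SLC3 gene, slc3a1, encodes the heavy chain rBAT, which in mammals pairs with the SLC7A9 light chain in cystine uptake by kidney and gut. It had 2, 1 and 0 reads in GFP-positive and 6, 0 and 2 in GFP-negative libraries, and slc7a9 had 4, 2 and 6 against 1, 10 and 0. Neither gene passed the filter. Light and heavy chain were also set against each other within each library. There were 12.0, 19.9 and 20.7 slc7a5 reads per 100 slc3a2a plus slc3a2b reads in GFP-positive libraries, and 6.16, 13.9 and 5.26 in GFP-negative ones. The groups overlapped, with a difference of 1.15 on the log2 scale (exact permutation test, two-sided, p = 0.2). The smallest p that 3 against 3 libraries allow is 0.1, so this test could not pass the threshold whatever the difference.

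Other light chains that pair with CD98 in mammals did not pass the test. slc7a8b, a copy of the LAT2 gene, had 60.6, 224 and 195 normalised reads in GFP-positive and 66.9, 121 and 61.3 in GFP-negative replicates (log2 fold change 0.80; limma, adjusted p = 0.442), so GFP-positive replicate 1 was the lowest of all libraries. The genes slc7a6 (y+LAT2, which exchanges cationic for neutral amino acids) and slc7a10b (a copy of the gene for Asc-1, a carrier of small neutral amino acids) had log2 fold changes of 0.00 and 0.69 (limma, adjusted p = 0.997 and 0.539). slc7a7, which encodes y+LAT1, had at most 16 reads in any library and was not tested. The light chain of the cystine and glutamate exchanger, listed in capitals as SLC7A11, had 0, 2 and 0 reads against 0, 1 and 0.

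The cationic amino acid transporters, which carry arginine and lysine without a heavy chain, did not pass the test either. slc7a3a (CAT3) had 2248, 3000.4 and 3298 normalised reads in GFP-positive and 2562, 3171 and 3437 in GFP-negative replicates. The ranges overlapped, with the lowest value in GFP-positive replicate 1 and the highest in GFP-negative replicate 3. The log2 fold change of -0.11 had a 95% interval of -0.57 to 0.35 (limma, adjusted p = 0.792). slc7a2 (CAT2) had 208, 86.4 and 217 against 149, 159 and 160.0 normalised reads (log2 fold change 0.01; limma, adjusted p = 0.991), with GFP-positive replicate 2 the lowest of all libraries. For slc7a1 (CAT1) the log2 fold change was 0.70 (limma, adjusted p = 0.482). Within the 14 lower-case SLC7 genes the make-up of the reads therefore differed. Of their reads, slc7a5 gave 15.97%, 18.0% and 7.76% in GFP-positive libraries and 0.625%, 1.01% and 0.378% in GFP-negative ones. slc7a3a gave 53.1%, 61.3% and 69.6% against 73.8%, 77.3% and 80.1%. These totals include slc7a6os, which is no transporter gene, and leave out the SLC7 genes listed in capitals. Among the latter, SLC7A1 (2 of 2) had 2695, 2737 and 2748 normalised reads against 3075, 3212 and 2568, so the shares do not describe the whole family.

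Among the remaining SLC7 genes, slc7a6os matched by name but is named for the opposite strand of slc7a6 and is no transporter gene. It stood at 896, 436 and 469 normalised reads against 560.4, 348 and 412 (log2 fold change 0.40; limma, adjusted p = 0.533). In the RefSeq gene order of assembly GRCz12tu it lies next to slc7a6 with no protein-coding gene between them. No overlap of their spans was listed there. SMARTseq2 libraries carry no strand, so reads where genes do overlap cannot be told apart. Overlaps with another protein-coding gene were listed for other members, among them slc7a2, slc7a10b, slc36a1, slc38a5a and slc38a11. slc7a4 had a log2 fold change of -0.61 (limma, adjusted p = 0.719), and slc7a10a, slc7a14a and slc7a14b had at most 15 reads in any library.

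**Figure D2:**
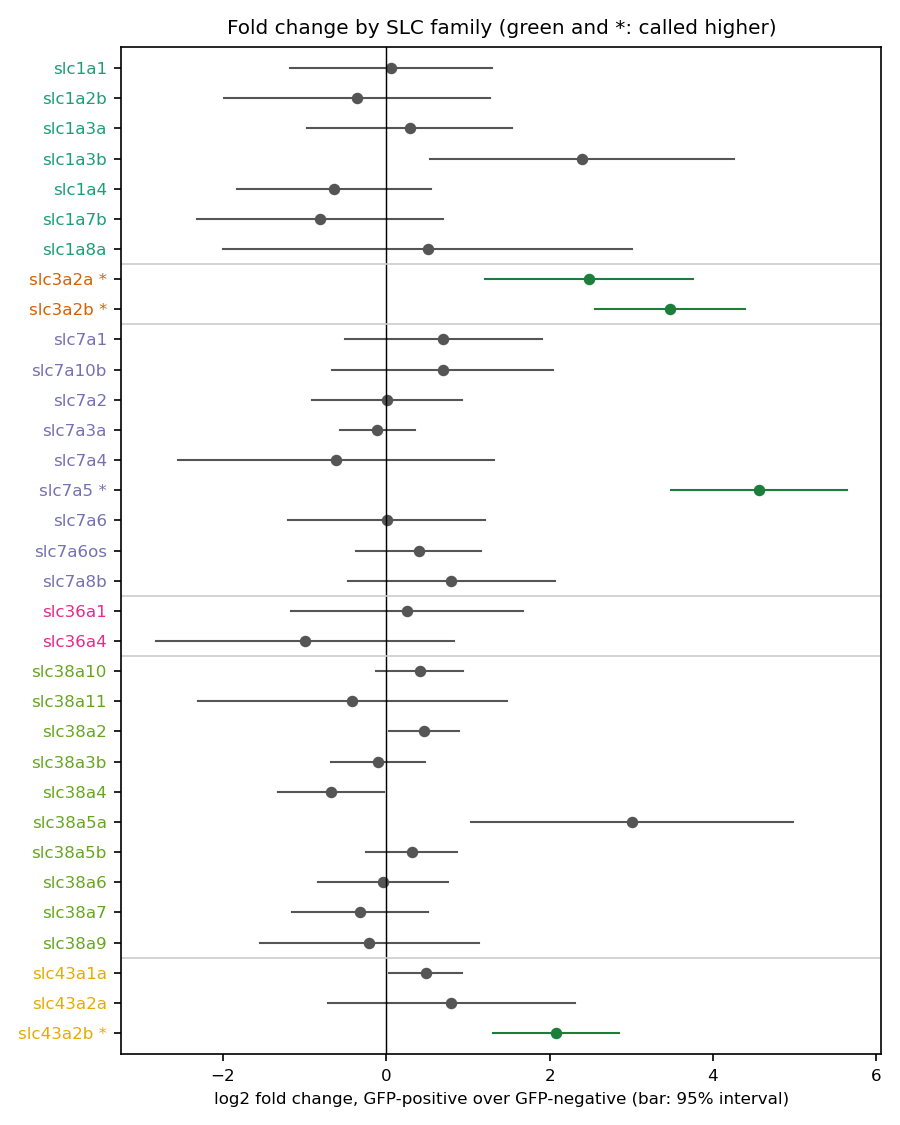
Log2 fold change (GFP-positive over GFP-negative) of the 33 tested genes by family, with 95% intervals from limma; genes called higher are green with an asterisk. The 4 called genes lie between 2.08 and 4.57, while slc38a5a at 3.01 and slc1a3b at 2.40 have wide intervals (1.03 to 4.99 and 0.53 to 4.26) and were not called.

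SLC43 held the fourth called gene. slc43a2b (ENSDARG00000061120) is a copy of the gene for LAT4, a facilitative carrier of branched-chain amino acids, phenylalanine and methionine. It had 406, 702 and 567 normalised reads in GFP-positive and 186, 104 and 109 in GFP-negative replicates. The groups did not overlap, and replicate 1 was the lowest of the GFP-positive and the highest of the GFP-negative libraries. Mean levels were 558 ± 148 and 133 ± 46.1 (SD, n = 3 each), with a fitted fold change of 4.23 (2.08 on the log2 scale, with an SE of 0.34 and a 95% interval of 1.31 to 2.85; limma, adjusted p = 0.00599). Its paralogue slc43a2a had 59.3, 81.9 and 76.7 normalised reads against 16.5, 35.8 and 113. GFP-negative replicate 3 was the highest of all, and the log2 fold change of 0.80 was not called (limma, adjusted p = 0.524).

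slc43a1a, a copy of the gene for LAT3, a related facilitative carrier of large neutral amino acids stood at 9720.3, 9708 and 6634 normalised reads in GFP-positive and at 6179.7, 6885 and 5369 in GFP-negative replicates. GFP-positive replicate 3 lay below GFP-negative replicate 2. Its log2 fold change of 0.48 (95% interval 0.04 to 0.93) had an unadjusted p of 0.0366 but was not called (limma, adjusted p = 0.184). The a copy gave at least 99.7% of slc43a1 pair reads in every library. Neither copy of slc43a3, whose mammalian counterpart carries purine nucleobases rather than amino acids, passed the filter. slc43a3b had 82, 12 and 7 reads in GFP-positive and 0, 0 and 8 in GFP-negative libraries. slc43a3a had 5, 7 and 10 against 2, 0 and 7 reads. For both, the normalised values of the groups did not overlap, the lowest GFP-positive value of slc43a3b being 7.89 and the highest GFP-negative one 5.64. Those values came from 7 and 8 reads, so for slc43a3b the separation rested on the size factors. Among genes tested, which do not include slc43a3a or slc43a3b, 17.4% lay above in this way. A count of 0 reads allows up to 3 reads in a library, for counting error only.

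In SLC38, 10 of the 11 genes were tested and limma called 0, with 3 at an unadjusted p under 0.05, while edgeR and DESeq2 called slc38a5a. slc38a3b, a copy of the gene for the glutamine carrier SNAT3, had 4132, 7955 and 6589.8 normalised reads in GFP-positive and 5494, 7201 and 6716 in GFP-negative replicates. GFP-positive libraries held both the lowest and the highest value, and the log2 fold change was -0.10 (95% interval -0.67 to 0.47; limma, adjusted p = 0.856). Its paralogue slc38a3a had 9, 1 and 5 reads against 0, 7 and 5. The system A carriers, which import alanine, glutamine and other small neutral amino acids with sodium, had log2 fold changes of opposite sign. slc38a2 (SNAT2) had 5477, 4732 and 3961 normalised reads against 3110.3, 4061 and 3112, with a log2 fold change of 0.46 (95% interval 0.03 to 0.89; limma, unadjusted p = 0.0373, adjusted p = 0.185). slc38a4 (SNAT4) had 786, 1473 and 1145 against 2201, 1848 and 1325, with a log2 fold change of -0.67 (95% interval -1.32 to -0.03; limma, unadjusted p = 0.0429, adjusted p = 0.200). Neither was called, and for each gene the ranges overlapped in 1 library of each group. The pair are near neighbours, with 1 protein-coding gene between them in the RefSeq order of GRCz12tu.

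slc38a5a (ENSDARG00000009901), a copy of the gene for SNAT5, which moves glutamine, histidine and serine, spread widely among the GFP-positive libraries. Its values were 940.4, 111 and 76.7 normalised reads in GFP-positive and 22.6, 20.2 and 30.3 in GFP-negative replicates, from 714, 100 and 68 against 26, 22 and 43 reads. All GFP-positive libraries were above all GFP-negative ones, but replicate 1 was several times the other GFP-positive libraries; it was also the library with the highest EVL marker level. The log2 fold change of 3.01 (SE 0.86, 95% interval 1.03 to 4.99) was not called by limma (adjusted p = 0.0712), while edgeR (log2 fold change 3.96, adjusted p = 0.0437) and DESeq2 (3.96, adjusted p = 4.38e-05) called it. Without GFP-positive replicate 1 it was 1.90 (limma, adjusted p = 0.0530), and without replicate 3 it was 3.70 and called (limma, adjusted p = 0.0397). In the RefSeq annotation its span overlaps stk38a, a kinase gene, which had 822, 682 and 566 normalised reads against 412, 584 and 642 (log2 fold change 0.35; limma, adjusted p = 0.468). Its paralogue slc38a5b stood at 5002, 2762 and 3149 against 3313, 2429 and 2836 (log2 fold change 0.31; limma, adjusted p = 0.502). The a copy gave 15.8% (95% Wilson interval 14.8 to 16.9), 3.85% (3.18 to 4.66) and 2.38% (1.88 to 3.00) of the pair's reads in GFP-positive libraries. In GFP-negative libraries it gave 0.677% (0.463 to 0.991), 0.825% (0.546 to 1.25) and 1.06% (0.786 to 1.42). These intervals cover counting error only.

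**Figure D3:**
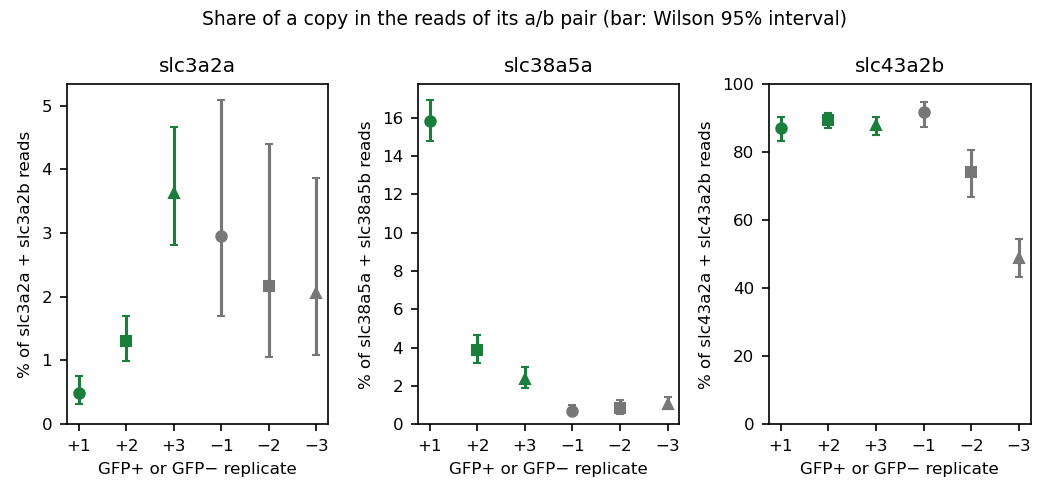
Share of slc3a2a, slc38a5a and slc43a2b in the reads of their a and b pair in each library (percent, linear axes from 0, with 95% Wilson intervals); GFP-positive libraries are green and GFP-negative ones grey. slc38a5a ran from 2.38% to 15.8% in GFP-positive and from 0.677% to 1.06% in GFP-negative libraries, whereas the shares of slc3a2a overlapped between the groups.

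The copies of a pair thus differed in their division of reads. For slc43a2 the b copy gave 87.3%, 89.5% and 88.1% in GFP-positive libraries and 91.8%, 74.3% and 48.9% in GFP-negative ones, a wider spread in which GFP-negative replicate 1 was the highest of all. For slc38a3 the b copy gave at least 99.7% in every library. Copies share sequence, and how reads with several matches were counted is not given in the sources used here, so the division of reads between close copies is uncertain.

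The lysosomal members of SLC38 were not called. slc38a9, which in mammals senses lysosomal arginine for mTORC1, had 316, 60.9 and 232 normalised reads in GFP-positive and 163, 172 and 248 in GFP-negative replicates (log2 fold change -0.21; limma, adjusted p = 0.872). GFP-positive libraries held both extremes, and the sign changed with edgeR (0.094), DESeq2 (0.072) or without GFP-positive replicate 2 (0.50). slc38a7, a lysosomal exporter of glutamine and asparagine, had 764, 1605 and 739 against 876, 1743 and 1161 (log2 fold change -0.32; limma, adjusted p = 0.653), where the same replicate number was highest on both sides. Elsewhere in SLC38, slc38a10 stood at 1029, 769 and 653 against 642, 524 and 654 (log2 fold change 0.41; limma, adjusted p = 0.343). slc38a6 and slc38a11 had log2 fold changes of -0.04 and -0.41 (limma, adjusted p = 0.961 and 0.810).

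The lower-case SLC1 genes had few reads, with at most 111 normalised reads in any library. SLC1A5, listed in capitals and described below, had 321 to 659 in GFP-positive and 228 to 482 in GFP-negative libraries. Of the 7 lower-case genes tested limma called 0, with 1 at an unadjusted p under 0.05. slc1a3b, a copy of the gene for the glutamate carrier EAAT1, had 18.4, 56.5 and 65.4 normalised reads in GFP-positive and 7.82, 17.5 and 2.11 in GFP-negative replicates. The groups were separated by less than 1 normalised read, and the log2 fold change of 2.40 (SE 0.81) was not called by limma (adjusted p = 0.120) or edgeR but was by DESeq2 (2.38, adjusted p = 0.0455). The paralogue slc1a3a had 72.4, 39.9 and 32.7 against 56.5, 19.3 and 46.5 (log2 fold change 0.29; limma, adjusted p = 0.800), and its sign changed under library-size scaling (-0.0099). slc1a4, which encodes the alanine and serine exchanger ASCT1, had 30.3, 42.1 and 103 against 111, 71.7 and 64.1 (log2 fold change -0.64; limma, adjusted p = 0.513), with overlapping groups. slc1a7b, a copy of the gene for the glutamate carrier EAAT5, had 3.95, 6.64 and 9.02 against 11.3, 10.1 and 14.1, so that the GFP-positive libraries were all below (log2 fold change -0.81; limma, adjusted p = 0.512). slc1a7b reached the filter's 10 normalised reads in the GFP-negative libraries alone, so this separation followed from the filter. Its copy slc1a7a had 0 reads in each GFP-positive library and 7, 2 and 5 in GFP-negative ones, too few to be tested. The glutamate carrier genes slc1a1 and slc1a2b had log2 fold changes of 0.05 and -0.36, and slc1a8a had 0.51 (limma, adjusted p = 0.968, 0.810 and 0.827). slc1a2a and slc1a6 had 2 reads each, in GFP-positive replicate 1 alone, and slc1a8b had at most 11 reads in any library.

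Both SLC36 genes had few reads and were not called. slc36a1, which encodes the proton-coupled carrier PAT1 of small amino acids, had 23.7, 14.4 and 27.1 normalised reads in GFP-positive and 14.8, 35.8 and 9.87 in GFP-negative replicates (log2 fold change 0.25; limma, adjusted p = 0.852), and its sign changed under library-size scaling (-0.035). In the RefSeq annotation its span overlaps fat2, a cadherin gene, which had 3709, 1014 and 817 normalised reads against 135, 62.5 and 101. The log2 fold change of fat2 was 3.92 (limma, adjusted p = 0.00360). Whether exons of fat2 and slc36a1 overlap was not tested, so reads of slc36a1 may be uncertain. slc36a4 (PAT4) had 14.5, 18.8 and 2.26 against 14.8, 17.5 and 26.1 (log2 fold change -0.99; limma, adjusted p = 0.509), with GFP-positive replicate 3 far below the rest.

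**Figure D4:**
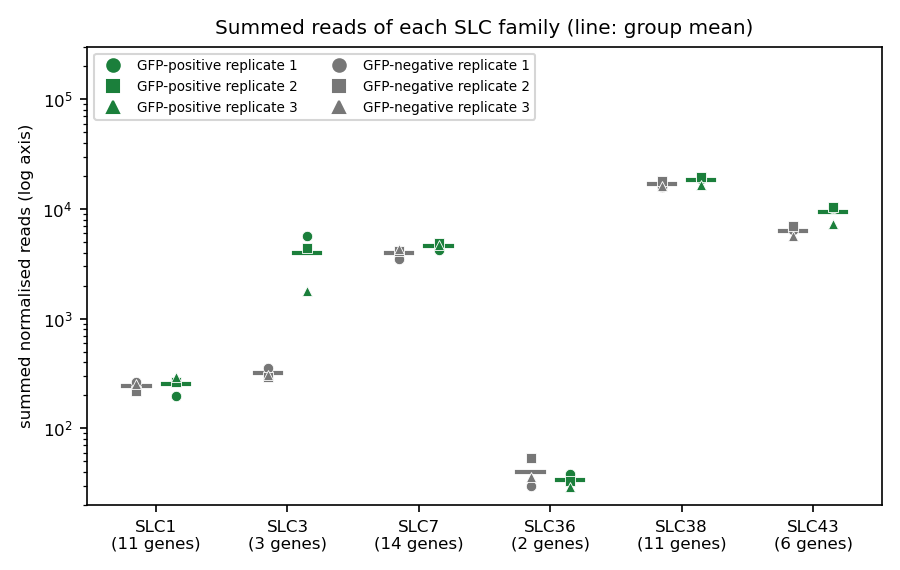
Summed normalised reads of the lower-case genes of each family in each library on a log axis, with a line at each group mean. The SLC3 sums of 1773 to 5616 in GFP-positive libraries lie above the 297 to 358 of GFP-negative libraries, while the SLC1, SLC7, SLC36 and SLC38 sums overlap between the groups.

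Summed over the lower-case genes of each family, SLC3 differed most between the groups. Its sums were 5616, 4422 and 1773 normalised reads in GFP-positive and 358, 297 and 309 in GFP-negative libraries, a ratio of means of 12.3, nearly all of it from slc3a2b. SLC43 summed to 10308, 10515 and 7306 against 6392, 7030 and 5617, a ratio of 1.48, and SLC38 to 18613, 19592 and 16675 against 15910, 18172 and 16272, a ratio of 1.09. As a share of all assigned reads, SLC38 took 0.0439%, 0.0462% and 0.0428% in GFP-positive and 0.0499%, 0.0508% and 0.05003% in GFP-negative libraries, which is the opposite direction, so its direction depended on the scaling. SLC43 took 0.0243%, 0.0248% and 0.0188% against 0.0200%, 0.0197% and 0.0173%, so its shares overlapped although its sums did not. All 47 genes together took 0.0920%, 0.0936% and 0.0791% of reads against 0.0828%, 0.0836% and 0.0823%, and these shares overlapped. These sums are dominated by the genes with most reads and were not tested.

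**Figure D5:**
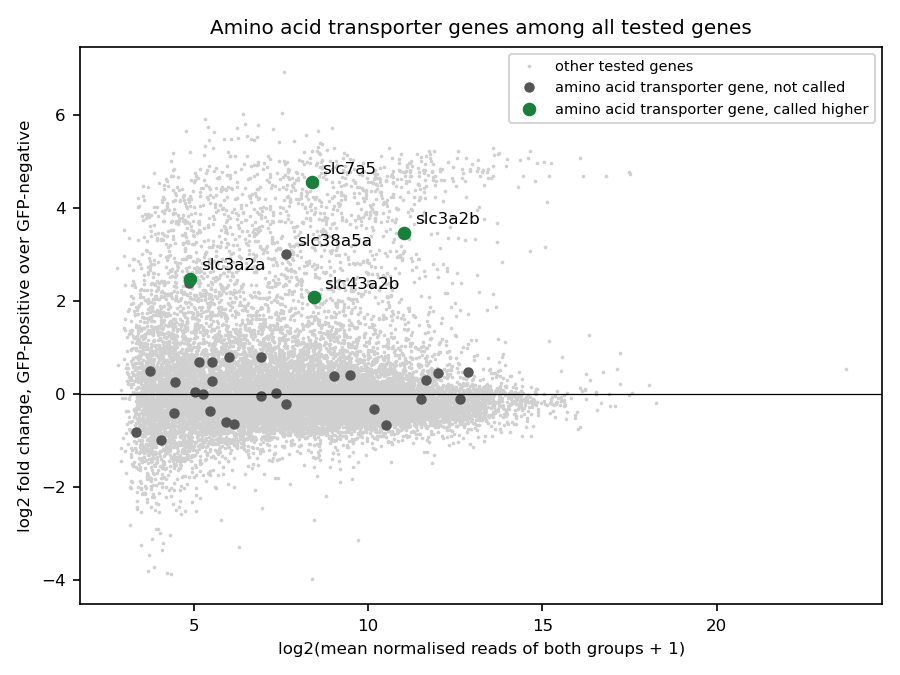
Log2 fold change against mean level (log2 of the mean normalised reads of both groups + 1) for all 15971 genes tested in grey, with transporter genes as dark circles and the 4 called ones in green. slc7a5, slc3a2b, slc43a2b and slc3a2a lie in the upper part of the cloud, where 1.82%, 4.78%, 9.20% and 7.64% of genes tested have a larger log2 fold change, and the other transporter genes lie mostly near 0.

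The called genes kept some signal in GFP-negative cells. Relative to the GFP-positive mean, slc7a5 stood at 3.39%, 6.45% and 2.53% in GFP-negative replicates and slc3a2b at 8.81%, 7.47% and 7.76%. slc3a2a stood at 20.9%, 12.9% and 12.7%, and slc43a2b at 33.3%, 18.6% and 19.4%. The median EVL marker was at 2.63% to 3.61% there, so slc7a5 was close to the markers and the other called genes were above them. Among GFP-positive libraries, replicate 3 was lowest for slc7a5, slc3a2b and the median marker, whereas replicate 1 was lowest for slc43a2b and slc3a2a. What part EVL cells among the GFP-negative cells, or dorsal forerunner cells among the GFP-positive ones, had in these levels was not tested.

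Of the 10 genes listed in capitals, 4 were tested and limma called 0, with 1 at an unadjusted p under 0.05. Over all 15971 genes tested, limma called 8.80% higher and 0.676% lower, and 3678 had an unadjusted p under 0.05. edgeR called 0 of the 4 and DESeq2 called 1, SLC38A8 (1 of 2), against 8.90% and 12.5% of all genes called higher. SLC38A8 (1 of 2) had 188, 268 and 256 normalised reads in GFP-positive and 149, 116 and 60.6 in GFP-negative replicates. The groups did not overlap, but the log2 fold change of 1.20 missed the threshold (limma, adjusted p = 0.109). Over all genes tested, 17.4% had all GFP-positive libraries above in this way. SLC7A3 (2 of 2), another CAT3 gene, was also above in every GFP-positive library, with 217, 177 and 168 against 150.3, 68.9 and 113 (log2 fold change 0.81; limma, adjusted p = 0.228). SLC7A1 (2 of 2), a CAT1 gene, had 2695, 2737 and 2748 against 3075, 3212 and 2568 (log2 fold change -0.11, 95% interval -0.46 to 0.24; limma, adjusted p = 0.729). SLC1A5, which in mammals encodes the glutamine exchanger ASCT2, had 464, 659 and 321 against 228, 467 and 482 (log2 fold change 0.31; limma, adjusted p = 0.682). Another CD98 gene, SLC3A2 (3 of 3), had 1, 0 and 7 reads against 0, 0 and 0, and was not tested.

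Among 32 amino acid carriers of other SLC families, 14 were tested and limma called 2 higher and 0 lower, against 8.80% and 0.676% of all genes tested. At an unadjusted p under 0.05, 3 were higher and 2 lower, against 2528 and 1150 of all 15971 genes tested. edgeR called 0 lower and DESeq2 1, against 52 and 327 of all 15971 genes tested. The median log2 fold change of the tested carriers was 0.41. The largest change was in slc6a7, listed in capitals as SLC6A7, whose mammalian counterpart is a sodium-dependent proline transporter of neurons. It had 7995, 5605 and 3517 normalised reads in GFP-positive and 81.7, 260.0 and 214 in GFP-negative replicates. Every GFP-positive library exceeded every GFP-negative one more than 10-fold, and the fitted rise was 32.4-fold (5.02 on the log2 scale, with an SE of 0.46; limma, adjusted p = 0.000673). ctns, the lysosomal cystine exporter, had 776, 451 and 399 normalised reads against 167, 141 and 179, a fitted rise of 3.20-fold (1.68 on the log2 scale, with an SE of 0.31; limma, adjusted p = 0.0116). The uncalled carrier with the highest mean was slc25a22, a mitochondrial glutamate carrier (log2 fold change 0.82; limma, adjusted p = 0.108).

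Members of the amino acid response, which in mammals the kinase GCN2 and the factor ATF4 switch on when amino acids run short, were tested in 28 cases. Of these, limma called 2 higher and 0 lower, against 8.80% and 0.676% of all genes tested, with a median log2 fold change of 0.03. At an unadjusted p under 0.05 there were 6, all higher, against 2528 higher and 1150 lower of all 15971 genes tested. With replicate number as a block, 1 gene of the list was called lower, against 279 of all 15971 genes tested. mthfd1l, a mitochondrial folate enzyme, had 1098, 576 and 298 normalised reads in GFP-positive and 186, 70.7 and 76.1 in GFP-negative replicates (log2 fold change 2.51; limma, adjusted p = 0.0239). atf5b, a copy of the gene for the ATF4-related factor ATF5, had 529, 215 and 198 against 58.2, 12.9 and 38.8 (log2 fold change 3.15; limma, adjusted p = 0.0154). In both genes GFP-positive replicate 1 was the highest, and without it 0 genes of the list were called. The number called higher was 1 without GFP-positive replicate 2, GFP-negative replicate 2 or GFP-negative replicate 3, 4 with replicate number as a block and 5 with DESeq2. Over all 15971 genes tested, 1573 were called higher with the block and 1994 with DESeq2. Without GFP-positive replicate 1 or 2 these were 1025 and 995, and without GFP-negative replicate 2 or 3 they were 1009 and 1059. atf4a had a log2 fold change of 0.11 (limma, adjusted p = 0.787).

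Of 20 tested aminoacyl-tRNA synthetases, which load amino acids onto tRNAs, 0 were called and the median log2 fold change was -0.20. limma gave 1 gene an unadjusted p under 0.05, and edgeR and DESeq2 called 0. The lysyl-tRNA synthetase kars, with the highest mean, had a log2 fold change of -0.27 (limma, adjusted p = 0.409). Of 34 tested genes of mTORC1 and its amino acid sensors, limma called 0, with 4 at an unadjusted p under 0.05 and a median of -0.04. edgeR called 0 of them. DESeq2 called 0 higher and 1 lower, against 1994 higher and 327 lower of all 15971 genes tested. akt1s1, which encodes the mTORC1 inhibitor PRAS40 and had the highest mean, had a log2 fold change of -0.24 (limma, adjusted p = 0.666). With library size alone as the scaling, 5 of these genes and 1 synthetase were called lower, against 1191 of all 15971 genes tested. With limma on the deposited values, 8.80% of all genes tested were called higher and 0.676% lower, and 3678 had an unadjusted p under 0.05.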

How the data were processed

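The deposited files hold 1 normalised signal value per gene and library; the unit was read from the values. The submitters' processing notes name Trim Galore, STAR 2.6.1d, featureCounts, DESeq2 and danRer10, without roles or other versions. The authors' signal values equalled whole reads divided by 1 factor per library for 100% of values, within 0.01 read. How strand and multi-matching reads were handled is not given in the sources used here. From these values, limma 3.58.1 (R 4.3.3) was fitted to log2(value + 1) by group alone, with a mean-variance trend and robust shrinkage. The added 1 understates the change of low genes. The 15971 genes that reached 10 normalised reads in 3 or more libraries were tested, and a Benjamini-Hochberg adjusted p under 0.05 counted as a call. edgeR 4.0.16 (called 1422 genes higher, 52 lower), DESeq2 1.42.0 and limma-voom on the recovered reads, other scalings, pseudocounts and minimums, a replicate block and leaving out each library were alternatives. Scripts were tested on simulated data.

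Members and gene lists were chosen with earlier results of these data known. Entries of the lists were matched by the files' names or a symbol table, 167 of 204 in all. Genes named by rule were every called member, up to 2 uncalled members with the highest mean in each family, their paralogues, the SLC3 genes and slc38a9. For other lists up to 4 called genes and the uncalled gene with the highest mean were named. Other members, among them slc38a5a, slc38a4, slc1a7b and slc43a3b, and the capital-letter rows were named after their values were seen. Neighbours came from RefSeq (GRCz12tu), which held 46 of the 47 genes. That build differs from the files', so no coordinates are given.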

Additional observations from a re-analysis of the deposited data

How the results depend on the processing

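slc7a5, slc3a2b and slc43a2b were called in all 16 alternatives, at log2 fold changes of 4.27 to 4.93, 3.13 to 3.99 and 1.78 to 2.35. Members called higher numbered 3 to 6, and 0 were called lower in any. Of the named members' fold changes under the alternatives, 281 kept direction and call, 4 lost the call (slc3a2a), 4 gained it (slc38a5a, slc1a3b) and 10 changed sign, none of them called. By library size, slc1a3a was -0.0099 and slc36a1 -0.035; by edgeR and DESeq2, slc38a9 was 0.094 and 0.072. With a library left out, slc1a3a ran from -0.17 to 0.59, slc7a3a from -0.23 to 0.052, slc36a1 from -0.13 to 0.75, slc38a3b from -0.30 to 0.17 and slc38a9 from -0.68 to 0.50.

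Over all genes, the 108 called lower became 52 with edgeR, 327 with DESeq2, 47 with limma-voom, 1191 by library size, 269 by upper quartile and 14 to 77 with a library left out. The cause was not tested. Same-numbered libraries correlated at 0.26, 0.33 and 0.075 in their deviations from the group means, each best with its own number. Differently numbered ones correlated at -0.27 to -0.017. The labels do not say whether the numbers mark pairs, so the main fit was by group alone and the block was an alternative. With the replicate block, 4 members were higher and 0 lower, and over all genes 1573 were higher and 279 lower. Other carriers called lower numbered 1 (DESeq2, upper quartile) or 2 (library size), and mTORC1 genes 1 (DESeq2, upper quartile) or 5. slc3a2a was not tested at a minimum of 50. With 3 libraries a group and few reads in many members, a missed call does not show equal levels.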
